A study of Mus musculus with 12 samples.

Results

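The genes described here encode the receptors through which naive B cells receive survival and help signals, and the route that links those receptors to noncanonical NF-kB. They were set by a list of 9 symbols: Tnfrsf13b, Tnfrsf13c, Cd40, Traf2, Traf3, Birc3, Map3k14, Nfkb2 and Relb. Of the 9, 8 were matched to a probe set by gene symbol, out of 18194 genes named on the array, and all 8 passed the filter on low values among 9307 genes tested. No probe set is listed under the symbol Traf3 in the platform annotation used, so Traf3 was not analysed here.

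Female C57BL/6 mice, 10 weeks old, gave the sorted spleen cells, whose RNA was hybridised to 12 Affymetrix arrays, 2 for each of 6 groups. All mice, controls included, carried 1 mb1-cre allele, which drives Cre recombinase in the B lineage from its early stages on. Bcl6 was flox/flox (homozygous deletion), +/flox (heterozygous) or +/+ (wild-type), and each genotype was sampled as marginal zone (MZ) and as follicular (FO) B cells. MZ cells were sorted as CD21highCD23low and FO cells as B220+AA4.1-CD21intCD23+, after depletion of other cells with antibodies. Whether both arrays of a group stand for separate mice is not stated in the labels, so the p-values reflect only how far these samples spread, and that spread may be technical.

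BAFF-R and TACI, encoded by Tnfrsf13c and Tnfrsf13b, bind the cytokine BAFF, and TACI also binds APRIL; BAFF-R signalling keeps mature B cells alive. CD40 receives help from T cells. In a resting B cell, a complex of TRAF2, TRAF3 and the cIAP proteins keeps the kinase NIK (Map3k14) unstable. When BAFF-R or CD40 is engaged, TRAF3 is degraded, NIK accumulates, the NF-kB2 precursor p100 is processed to p52, and p52 enters the nucleus with RelB. MZ B cells are known as BAFF-dependent cells that respond fast to antigens in blood, and BCL6 is a repressor best known from germinal centre B cells.

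The values are log2 expression per probe set after GCRMA, and a gene with several probe sets is represented by the one of highest mean. The minimum of the values was 2.21262 on FO arrays and 2.21924 on MZ arrays, so the cell types carry a possible difference between normalization runs that cannot be told apart from cell type. Markers of the 2 cell types followed the labels over the 3 genotypes: all 8 MZ markers tested were higher, and all 4 FO markers tested lower, in MZ than in FO arrays. Within wild-type samples 2 of the 4 FO markers were called lower. Klf2, an FO marker, overlapped between the cell types, at 9.07 to 13.39 on MZ and 13.10 to 14.07 on FO arrays. Of 9 T and NK cell markers on the array 1 was tested, and the mean of the 9 lay between 2.38 and 2.50 on every array, with Cd3e and Cd3d within 0.05 of the minimum. The 1 tested, Cd8a, was lower in MZ cells, at 2.55 to 2.81 against 4.22 to 4.53 on FO arrays, while Klrd1, not tested, lay at 3.22 to 3.94 on MZ and 2.28 to 2.47 on FO arrays. Of 10 macrophage and dendritic cell markers 6 were tested. Cd68 (6.80 to 7.85 on MZ and 4.19 to 6.13 on FO arrays) and Csf1r (4.30 to 5.69 and 2.24 to 3.45) were higher in MZ cells, Adgre1 (2.23 to 4.002 and 4.64 to 6.41) was lower, and the mean of the 10 lay at 3.72 to 4.598 on MZ and 3.48 to 4.25 on FO arrays. Both tested erythroid markers, Car2 and Tfrc, were lower in MZ cells, with a mean of the 6 on the array of 3.72 to 5.05 on MZ and 4.21 to 4.82 on FO arrays and Hba-a1 at the minimum on all 12. The mean of 7 neutrophil markers reached 4.16 to 5.70 on replicate 1 of MZ homozygous, MZ wild-type, FO homozygous and FO heterozygous arrays, and 2.27 to 2.29 on the other 8. The part of these cells in the results was not tested. The Gapdh control probe sets for the 3' and 5' ends, a sign of RNA integrity, differed by 6.90 on MZ wild-type replicate 1 and by -0.20 to 0.63 on all other arrays. Bcl6 itself had 2 probe sets: the brighter averaged 10.16 in MZ homozygous, 8.55 in MZ wild-type, 12.79 in FO homozygous and 11.80 in FO wild-type arrays, the dimmer 2.42 in FO homozygous, 5.28 in FO wild-type and 2.22 in every MZ group. The exons they cover are not stated in the labels, and they do not check the genotype labels.

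Of the 8 genes, 6 were lower in MZ than in FO B cells, averaged over the 3 genotypes: Tnfrsf13c, Traf2, Birc3, Map3k14, Nfkb2 and Relb. Tnfrsf13b and Cd40 did not pass the test, and no gene of the list was higher. Calls were made with limma at a Benjamini-Hochberg adjusted p under 0.05 over all tested genes. Between these cell types 44.5% of all tested genes were called, 28.2% as lower and 16.2% as higher in MZ cells. Markers of other cell types were called in the same comparison, 1 of 1 tested T and NK cell marker lower, 2 of 6 macrophage and dendritic cell markers higher and 1 lower, 2 of 2 erythroid markers lower and 0 of 4 neutrophil markers either way. Of 5 tested B cell markers 1 was called lower and 0 higher, and of 5 tested plasma cell markers 1 was higher and 1 lower. Prdm1 lay at 5.75 to 7.67 on MZ and 2.75 to 3.10 on FO arrays, and Sdc1 at 2.50 to 4.20 and 6.38 to 7.99. The median log2 difference, MZ minus FO, was -0.51 over the 8 genes and -0.17 over all tested genes. In bulk RNA of this kind, fewer cells that express a gene and less RNA per cell cannot be told apart.

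The share of lower calls depended on the scaling. Of all called genes, 63.5% were lower in MZ cells with the deposited values, 50% after quantile normalization over the 12 arrays and 45.7% after centring each array on its median. With quantile normalization Nfkb2 and Map3k14 were called lower, in a background of 40.3% called either way. With median centring Tnfrsf13c, Birc3 and Nfkb2 were called, in a background of 41%. The median difference of the 8 genes was then -0.32 and -0.35, and that of all tested genes -0.02 and -0.01. Nfkb2 was the 1 gene of the list called under each of these 3 scalings.

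**Figure D1:**
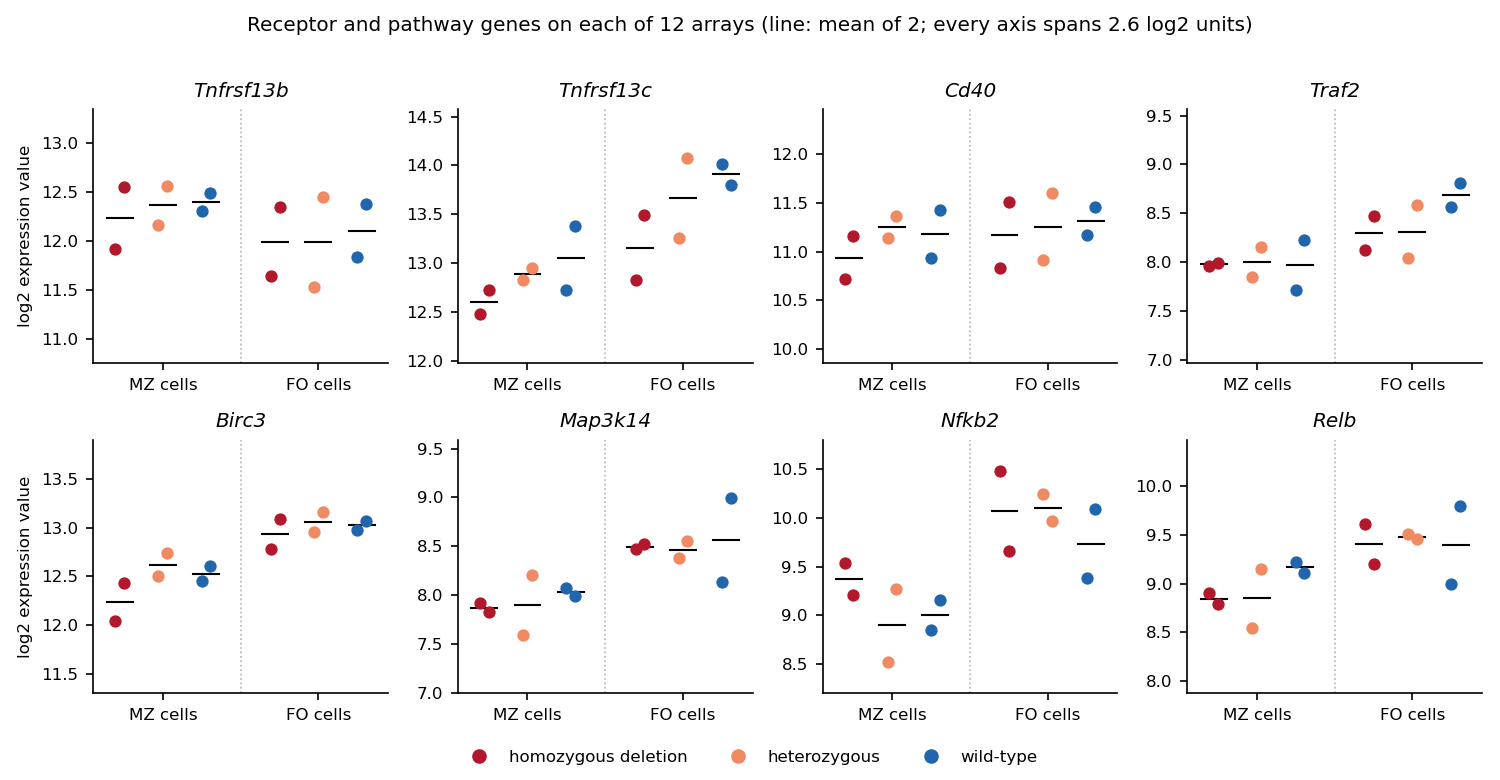
Log2 expression of the 8 genes (vertical axes) on each of the 12 arrays, with groups of cell type and genotype along the horizontal axes, points for arrays and bars for the mean of 2 arrays. Birc3 is the gene whose 6 MZ arrays, 12.04 to 12.74, all lie below its 6 FO arrays, 12.78 to 13.16.

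Among the receptors, Tnfrsf13c differed most with the deposited values and after median centring, and Tnfrsf13b after quantile normalization. Log2 levels of Tnfrsf13c were 12.48 and 12.72 in MZ homozygous, 12.82 and 12.94 in MZ heterozygous and 12.73 and 13.38 in MZ wild-type arrays. They were 12.83 and 13.49 in FO homozygous, 13.26 and 14.07 in FO heterozygous and 14.02 and 13.80 in FO wild-type arrays. Within each genotype both MZ arrays lay below both FO arrays, though MZ wild-type replicate 2 was above FO homozygous replicate 1. The mean was 12.84 ± 0.30 in MZ and 13.58 ± 0.48 in FO arrays (SD, n = 6 each), a log2 difference of -0.73 ± 0.19 (SE; limma adjusted p = 0.0151). The call held without any 1 array, with adjusted p from 0.00754 to 0.0421. It was not passed after quantile normalization (-0.52, adjusted p = 0.0716).

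Tnfrsf13b is known in the mouse for high surface TACI on MZ B cells. It measured 11.92 and 12.55 in MZ homozygous, 12.17 and 12.57 in MZ heterozygous and 12.31 and 12.49 in MZ wild-type arrays. FO arrays gave 11.64 and 12.35 with homozygous deletion, 11.53 and 12.45 in heterozygous and 11.84 and 12.38 in wild-type samples. The cell types overlapped in every genotype, and in all 6 groups the array numbered 2 was the higher. The difference, MZ minus FO, was 0.30 ± 0.22 (limma adjusted p = 0.298), with a 95% interval of -0.20 to 0.81 from lower to higher in MZ cells. It was 0.55 after quantile normalization and 0.46 after median centring, and passed under neither (adjusted p = 0.0799 and 0.114).

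Cd40 had the smallest difference of the 8 genes between the cell types. Its levels ran from 10.72 to 11.43 in the 6 MZ arrays (median 11.15) and from 10.84 to 11.60 in the 6 FO arrays (median 11.31). The ranges overlapped almost fully, with a difference of -0.12 ± 0.19 (limma adjusted p = 0.621). The sign turned under the other scalings, to 0.11 after quantile normalization and 0.04 after median centring, without a call. The other 2 Cd40 probe sets ran alongside. In MZ arrays they lay at 10.18 to 10.89 and 9.45 (MZ wild-type replicate 1) to 11.09. In FO arrays they lay at 10.23 to 11.05 and 10.06 to 11.14.

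Inside the cell, Traf2, Birc3 and Map3k14 act between receptor and NF-kB. Birc3 encodes cIAP2, a ubiquitin ligase that TRAF2 recruits. It measured 12.04 and 12.44 in MZ homozygous, 12.50 and 12.74 in MZ heterozygous and 12.46 and 12.60 in MZ wild-type arrays, against 12.78 and 13.09 in FO homozygous, 12.96 and 13.16 in FO heterozygous and 12.98 and 13.07 in FO wild-type arrays. All 6 MZ arrays lay below all 6 FO arrays, which held for 1 of the 8 genes and for 17% of all tested genes. The difference was -0.54 ± 0.11 (limma adjusted p = 0.00457) and held without any 1 array (adjusted p up to 0.0158). After quantile normalization it was -0.32 (adjusted p = 0.0526). On MZ wild-type replicate 1, the array with the Gapdh difference of 6.90, a second, dimmer Birc3 probe set was lowest, at 4.87. This probe set varied far more than the first, from 4.87 to 8.85 in MZ and 8.01 to 9.55 in FO arrays. Its difference of -1.36 ± 0.80 was not called (limma adjusted p = 0.191 over all probe sets, of which 59.1% were called), nor was the mean of both probe sets (-0.95, adjusted p = 0.0766).

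Map3k14, the kinase NIK, measured 7.92 and 7.82 in MZ homozygous, 7.59 and 8.21 in MZ heterozygous and 8.07 and 7.99 in MZ wild-type arrays. FO levels were 8.47 and 8.52 with homozygous deletion, 8.38 and 8.55 in heterozygous and 8.13 and 8.99 in wild-type samples. Within each genotype the MZ arrays were the lower, while MZ heterozygous replicate 2 exceeded FO wild-type replicate 1. The difference was -0.57 ± 0.17 (limma adjusted p = 0.0231). It missed the threshold, at an adjusted p up to 0.0602, without replicate 2 of FO heterozygous, FO homozygous or MZ homozygous samples or without MZ heterozygous replicate 1. A second Map3k14 probe set lay at 3.66 (MZ wild-type replicate 1) to 6.32 in MZ and 6.07 to 7.29 in FO arrays. It differed by -1.12 ± 0.47 without a call (limma adjusted p = 0.0815 over all probe sets).

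Traf2, the adaptor on which the complex is built, ran from 7.72 to 8.23 in MZ arrays (median 7.98) and from 8.04 to 8.81 in FO arrays (median 8.52). In wild-type samples it measured 7.72 and 8.23 in MZ cells against 8.57 and 8.81 in FO cells, and in heterozygous samples the cell types overlapped. The difference over the 3 genotypes was -0.45 ± 0.15 (limma adjusted p = 0.0352). The call was lost, at an adjusted p up to 0.0911, without replicate 1 of MZ wild-type, MZ heterozygous or MZ homozygous samples, or without replicate 2 of MZ homozygous, FO wild-type, FO heterozygous or FO homozygous samples.

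At the end of the route, Nfkb2, which encodes p100, differed most of the 8 genes. It measured 9.53 and 9.21 in MZ homozygous, 8.52 and 9.27 in MZ heterozygous and 8.85 and 9.16 in MZ wild-type arrays, against 10.48 and 9.66 in FO homozygous, 10.24 and 9.97 in FO heterozygous and 9.39 and 10.09 in FO wild-type arrays. The MZ arrays were below the FO arrays within each genotype, and MZ homozygous replicate 1 was above FO wild-type replicate 1. The mean was 9.09 ± 0.35 in MZ and 9.97 ± 0.40 in FO arrays (SD, n = 6 each). The log2 difference of -0.88 ± 0.21 corresponds to 1.838-fold less in MZ cells (limma adjusted p = 0.00971), and the call held in every alternative run (adjusted p from 0.00648 to 0.0304). A second Nfkb2 probe set differed by -1.34 ± 0.38 (limma adjusted p = 0.0212 over all probe sets, of which 59.1% were called), with its lowest value, 7.13, on MZ wild-type replicate 1.

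Relb, the partner of p52, measured 8.91 and 8.79 in MZ homozygous, 8.55 and 9.15 in MZ heterozygous and 9.23 and 9.11 in MZ wild-type arrays, against 9.61 and 9.20 in FO homozygous, 9.51 and 9.45 in FO heterozygous and 8.997 and 9.80 in FO wild-type arrays. The wild-type arrays overlapped between the cell types. The difference of -0.48 ± 0.17 lay just inside the threshold (limma adjusted p = 0.0493). It held without FO wild-type replicate 1 and without MZ heterozygous replicate 2, and missed the threshold without any 1 of the other 10 arrays (adjusted p up to 0.123). It also missed with no filter on low values, with a stricter one, with every probe set on its own and with array weights (adjusted p from 0.052 to 0.0638), as it did with a replicate block. After quantile normalization and median centring it was -0.30 and -0.32 (adjusted p = 0.160 and 0.146).

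**Figure D2:**
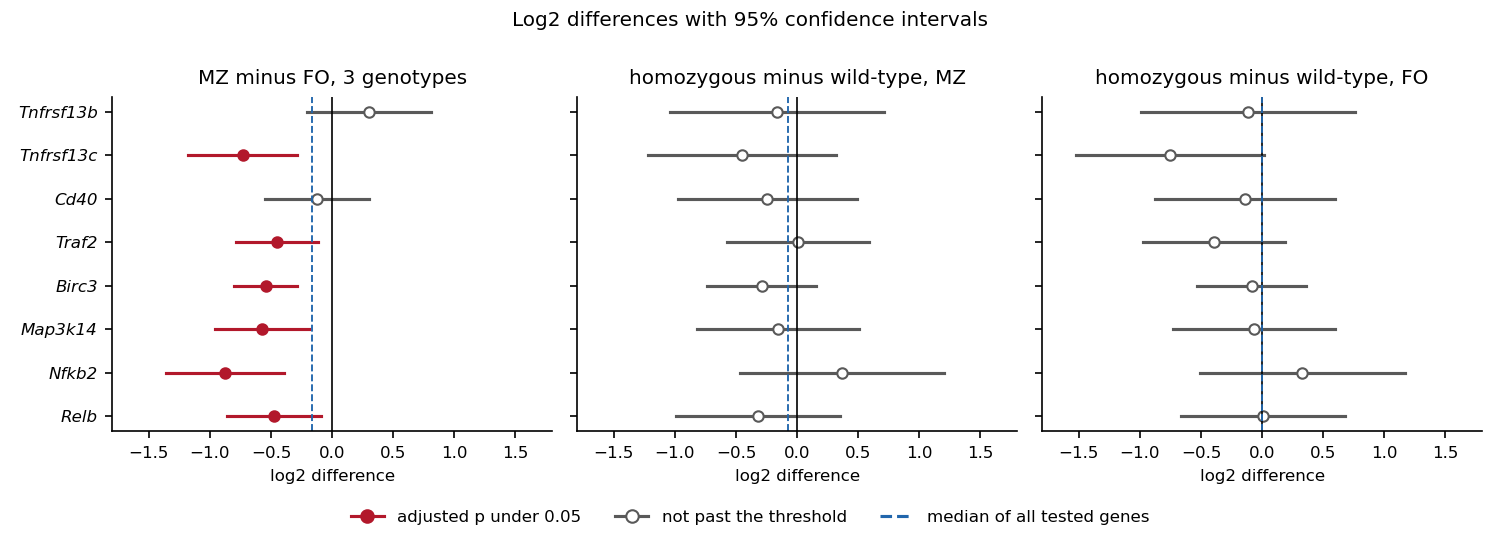
Log2 differences with 95% intervals for the 8 genes (rows) in MZ against FO cells over the 3 genotypes and in homozygous deletion against wild-type within each cell type; horizontal axes are log2 units. For 6 genes the MZ minus FO difference lies between -0.88 and -0.45 with an interval below 0, and no genotype difference passed the adjusted threshold.

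For 4 of 8 genes, Tnfrsf13c, Birc3, Map3k14 and Nfkb2, the split was complete within each genotype: they had both MZ arrays below both FO arrays in each of the 3 genotypes, against 21.5% of all tested genes. Taken one genotype at a time, both MZ arrays were below both FO arrays for 6 of 8 genes with homozygous deletion (42.8% of all tested genes), 5 in heterozygous (42%) and 5 in wild-type samples (33.7%). Fewer passed the adjusted test with 2 arrays a side. In homozygous samples it was Birc3 alone, at -0.70 ± 0.19 (limma adjusted p = 0.0377; 19.1% of all genes called). That call was lost without any 1 of 9 of the 12 arrays (adjusted p up to 0.213) and in a fit of the homozygous arrays alone (adjusted p = 0.119), where Map3k14 passed in its place (-0.62, adjusted p = 0.0499). In heterozygous samples it was Nfkb2 alone, at -1.21 ± 0.37 (limma adjusted p = 0.0458; 23.2% called). That call was lost without any 1 of 7 of the 12 arrays (adjusted p up to 0.268) and in a fit of the heterozygous arrays alone (adjusted p = 0.0757). The immediate early genes, a list of 15 transcripts such as Fos and Egr1 that rise within minutes of stimulation, had 13 of 14 tested members below 0 there, 2 of them called lower, with a median of -2.43. Their part in the Nfkb2 difference was not tested. In wild-type samples limma called 0 of 8 (22.2% of all genes called), and 3 of 8, Tnfrsf13c, Traf2 and Birc3, had an unadjusted p under 0.05 (35.1% of all genes).

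The promoters of the route are shown for 2 genes that were lower in MZ cells and differ in what these windows hold. Each window is RefSeq sequence of GRCm38.p6, from 250 bases before to 50 after an annotated gene start, and 7 of the 9 genes matched, with 9 windows. The kB motif was searched on both strands as GGGNNTTCC and as the same letters with 3 free bases in the middle, and both forms can match at 1 place. One form or the other was in 9.74% of all 32851 mouse promoter windows and in 6 of the 9 windows here, which belong to Nfkb2, Traf3, Traf2 and Tnfrsf13b. None was found in the windows of Tnfrsf13c, Birc3 and Map3k14. Nfkb2 has 3 windows on the plus strand of chromosome 19, of which the first, at chr19:46304487-46304786, held 5 matches that overlap in 2 places, and the second, at chr19:46305445-46305744, held 2. The third overlaps the second and shares 1 match with it. The Tnfrsf13c window lies on the minus strand at chr15:82224331-82224630. Capitals mark the kB matches.
Nfkb2 window 1: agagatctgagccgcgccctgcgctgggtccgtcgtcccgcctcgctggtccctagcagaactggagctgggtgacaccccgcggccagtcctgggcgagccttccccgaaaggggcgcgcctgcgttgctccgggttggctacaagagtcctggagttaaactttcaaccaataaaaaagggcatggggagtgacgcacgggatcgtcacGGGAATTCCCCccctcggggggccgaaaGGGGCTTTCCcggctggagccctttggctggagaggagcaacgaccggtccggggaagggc
Nfkb2 window 2: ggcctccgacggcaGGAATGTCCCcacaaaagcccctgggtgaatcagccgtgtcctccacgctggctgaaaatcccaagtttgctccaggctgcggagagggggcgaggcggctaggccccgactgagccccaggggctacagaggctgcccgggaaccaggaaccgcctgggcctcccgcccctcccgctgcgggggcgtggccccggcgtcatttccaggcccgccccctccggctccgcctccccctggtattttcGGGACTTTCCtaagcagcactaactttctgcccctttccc
Tnfrsf13c: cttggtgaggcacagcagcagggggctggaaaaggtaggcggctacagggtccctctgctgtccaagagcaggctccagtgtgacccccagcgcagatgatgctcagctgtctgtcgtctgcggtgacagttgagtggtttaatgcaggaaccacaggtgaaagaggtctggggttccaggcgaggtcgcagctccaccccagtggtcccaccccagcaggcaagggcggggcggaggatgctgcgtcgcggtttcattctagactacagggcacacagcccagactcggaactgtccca

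The form TTCNNNGAA, which both BCL6 and STAT factors are known to bind, was in the first Nfkb2 window and in no other window of the 7 genes, against 8.3% of all windows. A match is a run of letters and not a measured binding site.

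The series asks what loss of Bcl6 does in naive B cells, and no gene of the list passed the test for genotype. Homozygous deletion against wild-type gave 0 of 8 limma calls in MZ cells (0.0645% of all tested genes called), 0 in FO cells (0.43%) and 0 in the mean of both (0.462%). At an unadjusted p under 0.05 the counts were 0 of 8 in MZ cells (6.08% of all genes), 0 in FO cells (6.97%) and 1, Tnfrsf13c, over both (9.07%). The effect of homozygous deletion did not differ detectably between MZ and FO cells for any of the 8 (0 calls, 0.0107% of all genes; unadjusted 0, 3.74%). At 2 arrays a group, moderate changes could pass unseen. For FO homozygous against wild-type, simulated data had 200 of 9307 genes changed and independent noise on each array. There limma recovered 34.2% of genes changed by 1 log2 unit and 76.75% of those changed by 2. The real comparison called 40 genes, so these shares need not carry over to it.

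Tnfrsf13c came nearest. Its mean was 12.60 ± 0.17 in MZ homozygous against 13.05 ± 0.46 in MZ wild-type arrays, and 13.16 ± 0.47 in FO homozygous against 13.91 ± 0.15 in FO wild-type arrays (SD, n = 2 each). Both homozygous arrays were below both wild-type arrays in each cell type. The difference was -0.45 ± 0.34 in MZ cells (limma adjusted p = 0.828), -0.75 ± 0.34 in FO cells (adjusted p = 0.731) and -0.60 ± 0.24 over both (limma adjusted p = 0.497), with a 95% interval of -1.15 to -0.06. Heterozygous means lay between the others in both cell types, at 12.88 in MZ and 13.67 in FO arrays. The 6 groups thus ran, from the top, FO wild-type, FO heterozygous, FO homozygous, MZ wild-type, MZ heterozygous and MZ homozygous, and 4 of the 5 neighbouring pairs overlapped in their arrays; MZ homozygous lay apart from MZ heterozygous.

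Non-overlap of homozygous and wild-type arrays was otherwise scattered. In MZ cells 4 of 8 genes were lower on both homozygous arrays, Tnfrsf13c, Birc3, Map3k14 and Relb (21.3% of all tested genes), and 1, Nfkb2, was higher (9.96%). In FO cells it was Tnfrsf13c and Traf2, 2 of 8, that were lower (15.9%). Nfkb2 had differences of 0.37 ± 0.37 in MZ and 0.33 ± 0.37 in FO cells, the opposite sign to Tnfrsf13c, and neither was called (limma adjusted p = 0.857 and 0.969). The 95% intervals of the 2 comparisons reached from -1.22 to 1.20 in MZ and from -1.52 to 1.17 in FO cells over the 8 genes.

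Heterozygous deletion against wild-type gave 0 of 8 limma calls in MZ cells (0.0107% of all genes called; unadjusted 0, 3.08%) and 0 of 8 in FO cells (0% called; unadjusted 0, 1.98%). Homozygous against heterozygous deletion likewise gave 0 of 8 in MZ cells (0.0322%; unadjusted 0, 5.44%) and 0 of 8 in FO cells (0.0752%; unadjusted 0, 3.03%). In MZ cells both homozygous arrays were below both heterozygous arrays for Tnfrsf13c and Birc3, 2 of 8 genes, against 20.4% of all tested genes. Birc3 averaged 12.24 ± 0.28 in MZ homozygous and 12.62 ± 0.17 in MZ heterozygous arrays (SD, n = 2 each), a difference of -0.38 ± 0.19 (limma adjusted p = 0.901).

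Part of the spread within groups followed the replicate number. For Tnfrsf13b, Cd40, Traf2 and Birc3 the array numbered 2 was the higher in 6 of 6 groups, which held for 8.07% of all tested genes. The same was true of the mean of 5 B cell markers, whose replicate 2 exceeded replicate 1 by 0.135 to 0.54 log2 units. Members of this list differed: from replicate 1 to 2, Pax5 went from 6.58 to 7.38 and Cd79a from 11.09 to 10.58 on FO homozygous arrays. On MZ wild-type arrays Pax5 went from 6.14 to 8.07 and Cd79a from 10.70 to 10.62. The means of the 10 macrophage and dendritic cell markers and of the 6 plasma cell markers were higher on replicate 1 in all 6 groups. Replicate 1 exceeded replicate 2 by 0.38 to 0.87 for the former and by 0.08 to 0.61 for the latter. Not every member of these 2 lists did so. From replicate 1 to 2, Xbp1 went from 10.90 to 11.79 on MZ wild-type arrays, and Cd68 from 6.80 to 7.34 on MZ heterozygous arrays. Other lists were mixed: replicate 2 was higher in 1 of 6 groups for neutrophil, 2 for erythroid and 3 for T and NK cell markers. Within pairs Tnfrsf13b differed by 0.18 in MZ wild-type and by up to 0.92 in FO heterozygous samples. The labels do not say what the number stands for, and its part in the results was not tested beyond the fits with a replicate block.

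Nfkb2 and Relb varied in another way. The immediate early genes had array means from 7.45 to 11.37 in MZ and 8.29 to 11.33 in FO samples. Over the 3 genotypes 1 of the 14 tested was higher and 4 were lower in MZ cells, with a median of -0.51. In each group the array with the higher immediate early mean also had the higher Relb, 6 of 6 groups, against 7.37% of all tested genes. The count was 5 of 6 for Nfkb2 (13.1% of all tested genes) and 4 of 6 for Map3k14 (20.3%). It was 1 of 6 (11.7%) or 2 of 6 (20.4%) for the other 5 genes. On FO wild-type arrays, for instance, the mean of that list was 8.29 and 10.97, Relb 8.997 and 9.80 and Nfkb2 9.39 and 10.09. The part of this variation in the results was not tested.

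**Figure D3:**
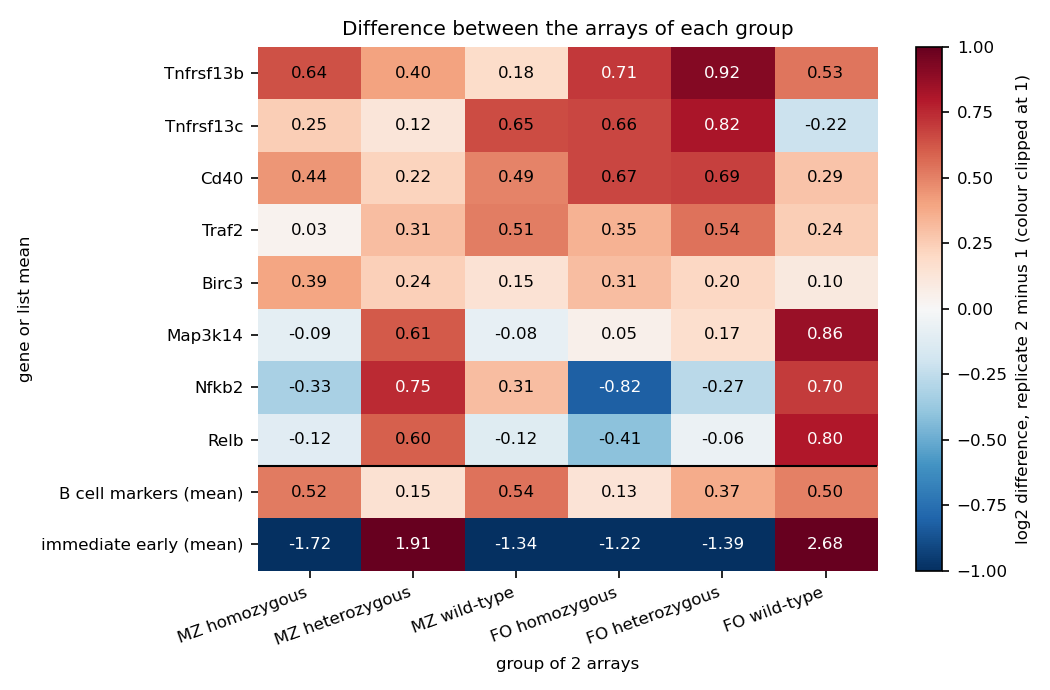
Heat map of replicate 2 minus replicate 1, in log2 units printed in each cell and shown as colour, for the 8 genes and the means of the B cell markers and the immediate early genes (rows) in each of the 6 groups (columns). Tnfrsf13b, Cd40, Traf2 and Birc3 are above 0 in all 6 groups, while Relb is above 0 in 2, those in which the immediate early mean is also above 0.

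Correlations of the 8 genes across the 12 arrays are given as a description, since the arrays share cell type and replicate structure. Map3k14 and Relb had a Pearson r of 0.92 and Nfkb2 and Relb of 0.83, and Tnfrsf13c had r = 0.88 with Traf2 and 0.85 with Birc3. These were not separate sets: Map3k14 had r = 0.79 with Nfkb2, 0.76 with Birc3 and 0.75 with Traf2. Cd40 went with Tnfrsf13b (0.71) and Tnfrsf13c (0.70), and Tnfrsf13b against Nfkb2 (-0.47). Outside the list, the transcripts most like each gene over the 12 arrays were Card6, Dcaf12 and Sc5d for Tnfrsf13c (r = 0.97 to 0.96), Ctso and Ndufaf7 after 2610507I01Rik for Tnfrsf13b (0.97 to 0.95), and Ppcs, Lpcat3 and Rbm5 for Cd40 (0.95 to 0.94). For Traf2 they were Abcf3, Gpn2 and Phf23 (0.95), and for Birc3 Sike1, Slamf1 and Tut1 (0.98 to 0.97). Rnf31, which encodes the linear ubiquitin ligase HOIP, was the nearest to Map3k14 (0.97), before Naa60 and Vps9d1 (both 0.97). Nfkb2 was nearest to Upf1, Supt5 and Phf21a (0.97 to 0.96), and Relb to Pdlim7, Stat6 and Susd6 (0.98 to 0.96).

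Other genes of the pathway were read from 4 lists, with the same cell type test over the 3 genotypes. Of 18 other TNF family ligands and receptors, 5 were tested, 2 higher and 1 lower in MZ cells, with a median of 0.09. After quantile normalization and after median centring it was 2 higher and 0 lower. Fas, the death receptor, was higher by 1.15 ± 0.16 (limma adjusted p = 5.46e-04), and Tnfrsf18, which encodes GITR, by 0.66 ± 0.12 (adjusted p = 0.00256). Ltb, the lymphotoxin beta ligand, was lower by a difference of -0.93 ± 0.28 (adjusted p = 0.0251), with MZ values from 11.17 to 13.05, the lowest on MZ wild-type replicate 1, against 13.13 to 13.87 in FO cells. Tnfsf13b (BAFF itself), Tnfrsf17 (the receptor BCMA) and Ltbr were within 0.06 of the minimum on every array.

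Among 19 tested TRAF, cIAP and IKK components, 3 were higher and 6 lower in MZ cells, with a median of -0.31, against 4 higher and 5 lower after quantile normalization and 4 and 4 after median centring. Ikbke, an IKK-related kinase, had the smallest p, with means of 8.55 in MZ homozygous, 8.59 in MZ heterozygous and 8.59 in MZ wild-type against 7.21 in FO homozygous, 6.98 in FO heterozygous and 6.92 in FO wild-type arrays, a difference of 1.55 ± 0.19 (limma adjusted p = 2.53e-04). Peli1, a ubiquitin ligase, was lower (-0.83 ± 0.10), as were Tab2 (-0.61 ± 0.08), an adaptor of the kinase TAK1, and Ikbkb (-0.70 ± 0.11), the kinase IKK-beta.

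The 14 tested genes of canonical NF-kB and its inhibitors gave 0 higher and 7 lower calls, with a median of -0.62, against 1 higher and 5 lower after quantile normalization and 0 and 6 after median centring. Bcl3, a nuclear IkB protein, differed by -1.25 ± 0.08 (limma adjusted p = 4.99e-06), and Nfkbia, the inhibitor IkB-alpha, by -1.06 ± 0.09 (adjusted p = 3.11e-05). Nfkbia measured 13.21 to 13.48 in MZ arrays against 14.23 to 14.59 in FO arrays, with no overlap. Rela, the p65 subunit, differed by -0.87 ± 0.15 and the adaptor Tnip2 by -0.88 ± 0.11.

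Of 12 tested survival genes and other known NF-kB targets, 1 was higher and 4 were lower, with a median of -0.28. The chemokine receptor Ccr7, which also stands on the FO marker list, differed by -1.94 ± 0.27 (limma adjusted p = 4.95e-04), and the antiapoptotic genes Cflar, Bcl2 and Mcl1 by -0.60 ± 0.15, -0.40 ± 0.11 and -0.28 ± 0.09. Quantile normalization gave 2 higher and 1 lower call here, and median centring 1 higher and 2 lower.

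In the genotype comparisons limma called 0 genes of the 4 lists. Fas came nearest, with means of 5.91 in MZ homozygous against 6.95 in MZ wild-type and 4.65 in FO homozygous against 5.88 in FO wild-type arrays. Over both cell types its difference, homozygous minus wild-type, was -1.14 ± 0.20 (unadjusted p = 3.50e-04, limma adjusted p = 0.0604). Heterozygous means lay between, at 6.54 in MZ and 5.40 in FO arrays.

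**Figure D4:**
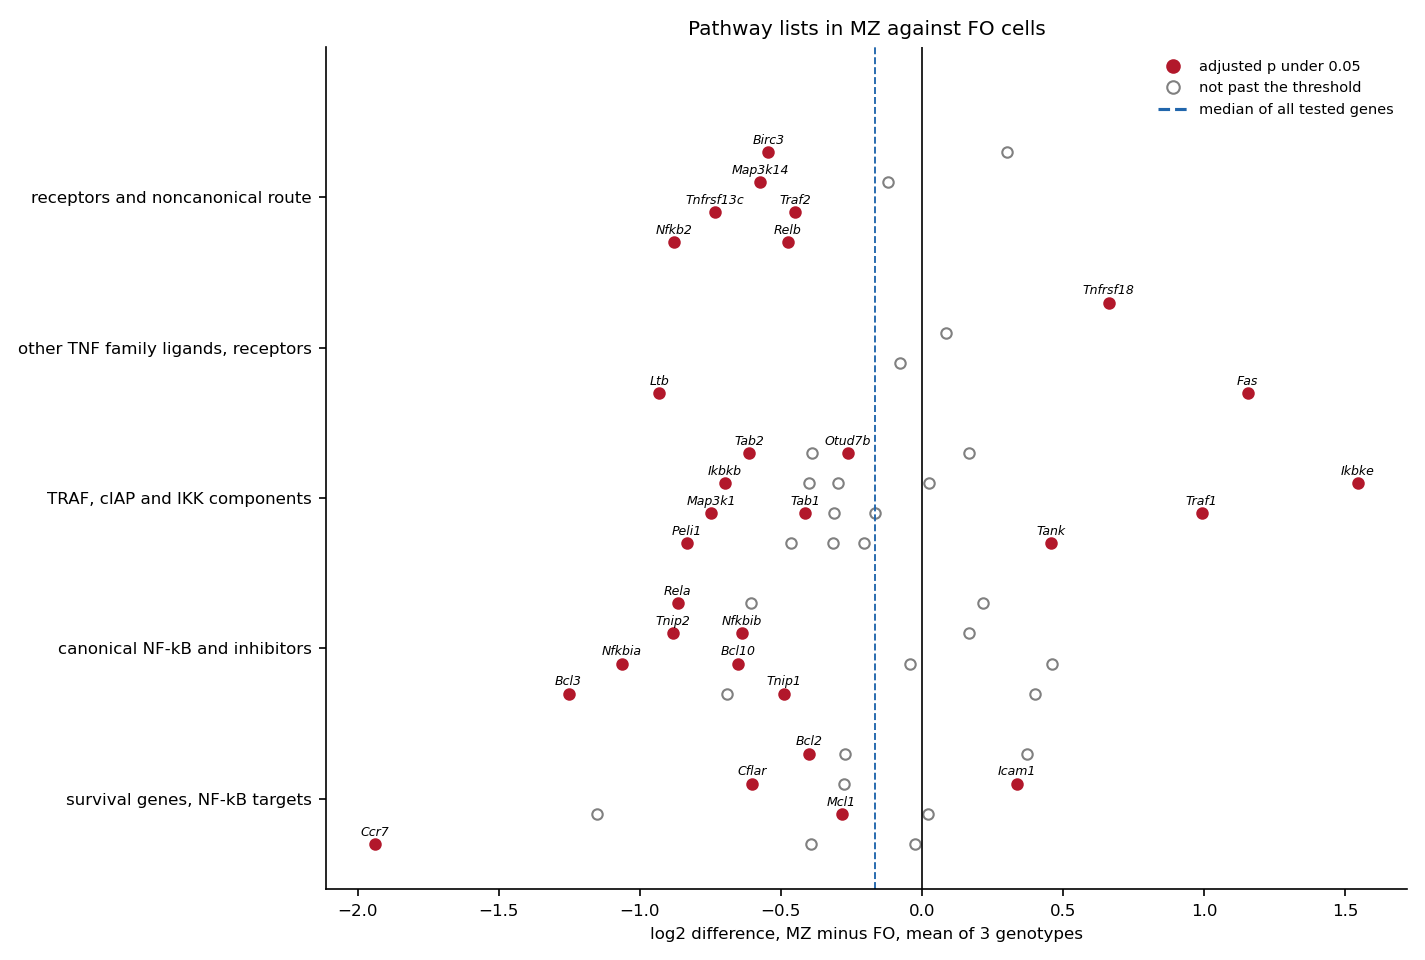
Log2 difference, MZ minus FO, over the 3 genotypes (horizontal axis) for each tested gene of the 8 and of the 4 pathway lists (rows), filled where the limma adjusted p was under 0.05; vertical offsets within a row only separate labels, and the dashed line is the median of all tested genes, -0.17. With the deposited values 7 canonical NF-kB genes were called lower, from Bcl3 at -1.25, and 0 higher, against 5 and 1 after quantile normalization, and Ikbke at 1.55 is the highest point.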

How the data were processed

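Per the labels' protocols, TRIZOL was used to extract total RNA and a 3'IVT kit to label it. The authors deposited log2 values from GCRMA (named in the submitters' processing notes), 1 per probe set; the version is not given in the sources used here. Of 45101 probe sets, 34958 had 1 gene symbol in the platform annotation, 932 several and 9211 none listed, 64 controls among them; 34754 matched a RefSeq gene, and no symbol changed. A gene is its probe set with the highest mean (18194 genes). The test took the 9307 genes that reached log2 4 on 2 arrays or more.

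Means of 6 groups were fitted over 12 arrays with limma 3.58.1 in R 4.3.3 (lmFit and eBayes, 6 residual degrees of freedom; two-sided p, Benjamini-Hochberg over all tested genes, threshold 0.05). The number of arrays limits the precision. Deviations of same-numbered arrays from their group means correlated at 0.452 to 0.768 among FO homozygous, FO heterozygous, MZ homozygous and MZ wild-type. The correlation was 0.575 between FO wild-type and MZ heterozygous, and -0.255 to 0.119 across these sets. Since it was not high between all groups, the numbers were not taken to pair the arrays. The main fit treats the arrays as independent and does not take up this shared pattern. Simulated data had 200 of 9307 genes changed and noise drawn independently for each array. There limma recovered 75.35% of genes changed by 1 log2 unit between MZ and FO cells over the 3 genotypes, with 5.095% false calls. In the data 44.5% of tested genes were called and arrays shared deviations, so these shares are not error rates of the calls reported.

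All listed genes were described, with up to 4 called genes of each pathway list (smallest p) and the 3 transcripts that correlated best with each gene. Genes and lists were chosen with earlier results of these data known. Alternatives changed the low-value filter, the choice of probe set, the moderation, array weights, the scaling or the arrays fitted, added replicate blocks, or left out 1 array at a time.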

Additional observations from a re-analysis of the deposited data

How the results depend on the processing

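Of the 8 called results of single genes, 117 of 178 alternative values kept the call, 61 lost it and none changed direction. MZ against FO cells over the 3 genotypes called 6 of 8 genes, against 2 after quantile normalization, 3 after median centring and 3 to 6 without 1 array; the count was 3 without FO heterozygous replicate 2, FO homozygous replicate 2, MZ heterozygous replicate 1 or MZ homozygous replicate 2, and 4 without MZ wild-type replicate 1, the array with the high Gapdh difference, where Tnfrsf13c, Birc3, Map3k14 and Nfkb2 passed. MZ against FO cells in heterozygous deletion called 1, against 0 with a stricter filter of 6, with the mean of all probe sets, after quantile normalization, after median centring and with only the arrays compared, and 0 to 1 without 1 array. MZ against FO cells in homozygous deletion called 1, against 0 with the mean of all probe sets, after quantile normalization and after median centring, and 0 to 1 without 1 array. MZ against FO cells in wild-type called 0, against 1 with a replicate block within genotype, 3 with a replicate block over all arrays (chosen after seeing the data) and 0 to 1 without 1 array. All 8 genotype comparisons stayed at 0 of 8 in every alternative, blocks included. With a replicate block within genotype the Relb call over the 3 genotypes was lost (adjusted p = 0.0678). With the block over all arrays Relb (0.0517) and Nfkb2 in heterozygous samples (0.0517) were lost, while Tnfrsf13b over the 3 genotypes (higher in MZ cells, 0.0496) and Birc3 in heterozygous samples (0.0414) passed. The causes of these shifts were not tested.

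Counts over all genes moved more. Over the 3 genotypes 4137 genes were called, against 10670 of 18194 without the filter and 20648 of 34958 probe sets taken singly; there, genes at the 2 different minima enter. MZ against FO calls in wild-type were 2066 of 9307 genes, against 604 in a fit of the wild-type arrays alone and 16082 of 34958 probe sets taken singly. The highest count given below for homozygous deletion in MZ cells, 11, is also of probe sets taken singly. For the mean of both cell types, homozygous deletion gave 43 calls, against 5 to 67, and 272 without MZ wild-type replicate 2; in FO cells it gave 40, against 0 to 61, and 7 without FO homozygous replicate 2; in MZ cells 6, against 0 to 11, and 325 without MZ wild-type replicate 2.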
